A study of Mus musculus with 5 samples.

Results

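Sprr1a, Sprr1b, Sprr2b, Sprr2c-ps, Scel and Ivl belong to the cornified envelope and its small proline-rich proteins. They are represented by 7 of the 12422 probe sets measured, which are all those that the platform annotation assigns to exactly 1 of these symbols. The genes were chosen by measured values of the same arrays, in an earlier look at them. The values below therefore describe the members, and no test on them is given as support.

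The arrays are Affymetrix mouse expression arrays of total RNA labelled as lung, all from A/J mice that received an instillation into the trachea, 2 with saline solution and 3 with IL-13, a cytokine of T helper 2 cells. A number without a unit stands in each title (saline 6 and saline 48, then IL-13 6, IL-13 18 and IL-13 48), and values are listed in that order throughout. The labels give no dose, age or sex and do not say how many animals stand behind an array. Every combination of treatment and number is a single array, so the spread within a combination cannot be given.

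The cornified envelope is a shell of cross-linked protein that forms beneath the plasma membrane of squamous epithelial cells as they mature. Transglutaminases join involucrin, loricrin, sciellin, desmosomal plaque proteins and the small proline-rich (SPRR) proteins into it, with the SPRR proteins acting as short bridges between larger partners. Most SPRR genes, involucrin and loricrin lie together in the epidermal differentiation complex. Airway epithelium is not normally cornified, yet SPRR genes are known to be switched on in it by injury and by T helper 2 cytokines.

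The intensities are the deposited ones on a linear scale, and 5 of the 7 member probe sets exceeded 210, the 40th percentile of all values, on at least 2 arrays. Differences are log2 values after a floor at 55.3, the 20th percentile. The SPRR genes are close copies, and an f_at, r_at, i_at or s_at ending marks probes that related transcripts may share or that met relaxed design rules. Of the 7 member probe sets, 3 end in f_at (one each for Sprr1b, Sprr2b and Sprr2c-ps) and 1 in r_at (the second Sprr1b probe set).

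Sprr2b, an SPRR protein gene of the Sprr2 group, carried the clearest pattern. Its probe set 99701_f_at gave 2391 and 2248 under saline versus 19622, 11479 and 4234 under IL-13. The groups were separate, the saline arrays lay close together, and the IL-13 values stood in the order 6, 18, 48 from high to low. The mean log2 value was 13.26 ± 1.12 (SD, n = 3) with IL-13 and 11.18 ± 0.06 (SD, n = 2) with saline, a difference of 2.09. That is 8.21-fold at 6, 1.88-fold at 48 and 4.95-fold for IL-13 18 over the mean of both saline arrays. IL-13 6 was 4.63-fold above IL-13 48. With saline 48 in place of saline 6 as control, the log2 difference at 6 was 3.13 rather than 3.04, so it did not turn on the choice of saline array.

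Sprr2c-ps is listed as a pseudogene next to Sprr2b, without a protein product. Its probe set 101761_f_at gave 87.2 and 63.1 under saline versus 2959, 151 and 85.5 under IL-13. Only IL-13 6 was bright, and IL-13 48 lay between the saline arrays. The ratio was 33.9-fold at 6 and 1.36-fold at 48, and IL-13 6 was 34.6-fold above IL-13 48. Since only 1 array exceeded 210, this probe set was not among the 5 that entered the fit.

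Sprr1a encodes an SPRR protein of the Sprr1 group, a cross-bridging precursor. Probe set 160909_at, with no special ending, gave 796 and 1351 under saline versus 3801, 1764 and 1520 under IL-13. The groups did not overlap, and the IL-13 arrays again stood in the order 6, 18, 48, but IL-13 48 was only 1.12-fold above saline 48. At 6 the ratio was 4.77-fold, or 1.49 on the log2 scale when saline 48 served as control. The saline arrays themselves differed 1.7-fold.

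For Sprr1b, the other Sprr1 gene, the pair of probe sets disagreed. The f_at probe set 100445_f_at gave 536 and 552 under saline versus 800, 668 and 1839 under IL-13. Here the highest array was IL-13 48, at 3.33-fold its saline control, while the ratio at 6 was 1.49-fold. The r_at probe set 100446_r_at was bright throughout, at 15420, 11758, 15115, 13845 and 11309 in the same order of arrays. Its groups overlapped and its log2 difference was -0.01. Pearson's r between the pair was -0.54 over the 5 arrays, so the deposited values give no single level for Sprr1b.

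Scel encodes sciellin, an envelope precursor of stratified epithelium that lies on another chromosome than the SPRR genes. Its probe set 161132_at gave 203 and 617 under saline versus 1028, 811 and 980 under IL-13. The groups did not overlap, the IL-13 arrays lay close together (log2 SD 0.18, n = 3), and the spread was in the saline arrays, 3.04-fold apart. The ratio was 5.08-fold at 6 and 1.59-fold at 48, and the log2 difference at 6 fell from 2.34 to 0.74 with saline 48 as control. Over all arrays the log2 difference was 1.40, from 0.60 without saline 6 to 2.21 without saline 48.

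Ivl encodes involucrin, an early scaffold of the envelope. Its probe set 92739_at gave 18.6 and 39.1 under saline versus 10.5, 13.5 and 22.8 under IL-13. All values lie under the floor, so neither a fold nor an order can be given, and the probe set was not tested.

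**Figure D1:**
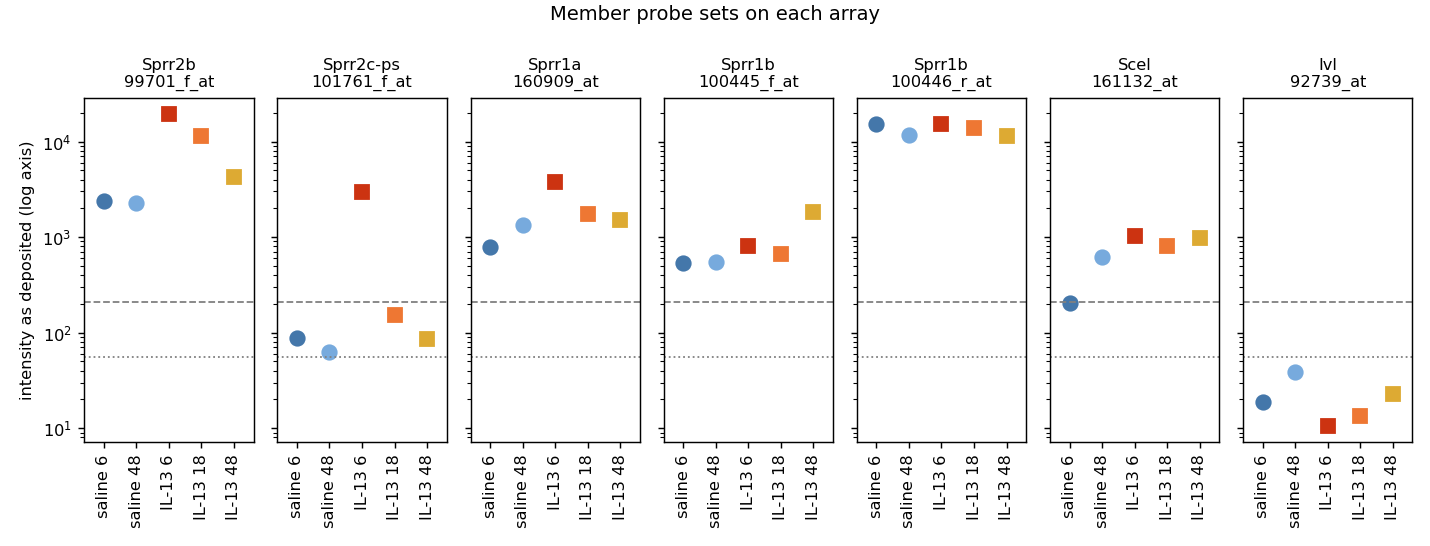
Deposited intensity (log axis) of each member probe set on the 5 arrays, 1 point per array, circles for saline and squares for IL-13. The dotted line is the floor (55.3) and the dashed line the filter level (210). Sprr2b is highest on IL-13 6 (19622) and lowest on saline 48 (2248), while all 5 Ivl points lie below the floor.

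Of the 5 member probe sets tested with limma, none was called at a Benjamini-Hochberg adjusted p under 0.05, a call made for 0.0512% of the 7811 probe sets. An unadjusted p under 0.05 was found for 3 of them (Sprr2b, Scel and Sprr1a), all higher with IL-13, against 5.29% of all probe sets in that direction. For 4 of the 5 the lowest IL-13 value exceeded the highest saline value, which held for 14.8% of all tested probe sets. The IL-13 arrays stood in the order 6, 18, 48 for 3 of the 5 (Sprr2b, Sprr1a and the r_at probe set of Sprr1b), against 16.4% overall. These members were picked from this contrast, so their counts are a description.

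Comparing single arrays, probe sets were counted whose higher value exceeded the median of all values (343). At 6, 4 of 6 such member probe sets were at least 2-fold higher with IL-13 (Sprr2b, Sprr2c-ps, Sprr1a and Scel), against 3.5% of all. At 48, 1 of 5 was (Sprr1b, f_at), against 1.13%. On IL-13 18, 2 of 5 were at least 2-fold above the mean of both saline arrays (Sprr2b and Scel), against 1.88%. With these controls, the member that led at 48 was not among those that led at 6. This turned on the saline array. With saline 6 as control of IL-13 48, the log2 difference was 2.27 for Scel and 1.78 for Sprr1b (f_at).

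The other Sprr2 genes gave 10 further probe sets, 2 of which the annotation assigns to several genes of the group at once. Their probes may take up the same transcripts as those of Sprr2b, so they are not independent of it. Probe set 101024_i_at, one of those with several genes, gave 2175 and 3530 under saline versus 23820, 15952 and 4660 under IL-13, a log2 difference of 3.45 at 6. Its companion 101025_f_at gave 1806 and 2479 under saline versus 16463, 12893 and 4972 under IL-13. The pair followed the order seen for Sprr2b, with IL-13 48 nearest to saline.

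Smaller ratios of the same order came from Sprr2i, Sprr2g and Sprr2j-ps. Sprr2i (95794_f_at) gave 1588 and 1943 under saline versus 5047, 3878 and 2084 under IL-13. Sprr2g (101754_f_at) gave 1734 and 1821 under saline versus 5256, 3325 and 2210 under IL-13. RefSeq lists it, like Sprr2j-ps, as a transcribed pseudogene. Sprr2j-ps (101755_f_at) read 744 and 696 against 1904, 1478 and 933. In each case IL-13 48 was above both saline arrays by a small margin, 1.07-fold to 1.34-fold its saline control.

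Sprr2e and Sprr2k were instead brightest on IL-13 18. Sprr2e (100723_f_at) gave 3369 and 2697 under saline versus 7444, 7699 and 3372 under IL-13, so IL-13 48 was barely above saline 6. Sprr2k (101756_f_at) was dim, at 204 and 223 under saline versus 303, 442 and 254 under IL-13. The remaining 3 probe sets did not enter the fit. Sprr2h (94121_at) lay below the floor on both saline arrays (50.1 and 26.1) and gave 174, 129 and 159 under IL-13, at least 3.14-fold higher at 6 and at least 2.87-fold at 48. Sprr2f (94120_s_at) gave 129 and 154 under saline versus 243, 190 and 91.5 under IL-13, and Sprr2d (95793_at) read between 48.3 and 165 with no separation.

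Among these 10 probe sets 7 were tested and all 7 had IL-13 values that exceeded both saline values, against 14.8% of all tested. At 6, all 6 of those above the median level were at least 2-fold higher with IL-13, against 3.5%. At 48, 1 of 6 was (101025_f_at), against 1.13%, and on IL-13 18 it was 6 of 7, against 1.88%. They may share probes, and do share arrays, with Sprr2b, so nothing is read from these shares. Sprr3, an SPRR gene outside the Sprr2 group, differed in its order. Probe set 101762_at gave 1416 and 2147 under saline versus 2663, 2743 and 3854 under IL-13, highest on IL-13 48 as Sprr1b (f_at) was.

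**Figure D2:**
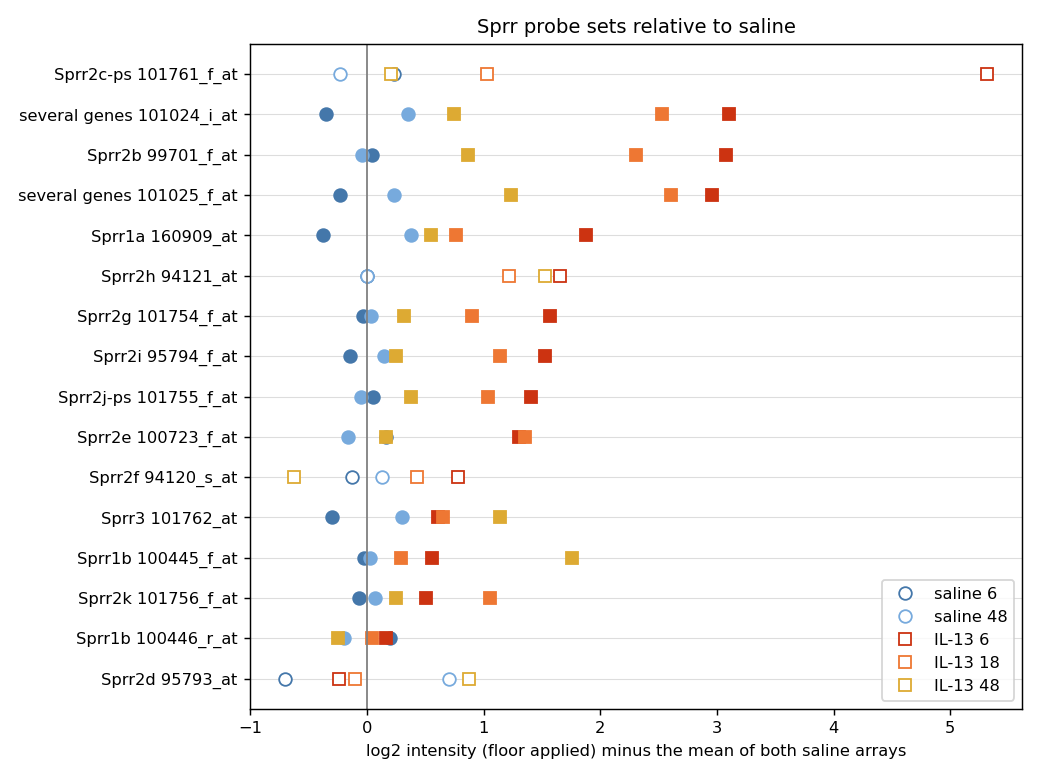
Each Sprr probe set on the 5 arrays, as log2 intensity minus the mean of both saline arrays (x axis). Circles are saline and squares IL-13, and open symbols mark probe sets that did not enter the fit. Sprr2b lies 2.31 above saline on IL-13 18, higher on IL-13 6 and lower on IL-13 48, whereas the f_at probe set of Sprr1b and Sprr3 are highest on IL-13 48.

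Promoter sequence was read for the members and the other SPRR genes, whatever their values, from RefSeq's promoter table (build GRCm38.p6), as the 250 bases before each start. The table held 5 of the 6 members and no entry for Sprr2c-ps. The windows below show a shared layout in Sprr2b and Sprr2i, a different one in Sprr1a, and that of Ivl, whose probe set stayed under the floor. They run 5′ to 3′ along the gene, with the motif matches in capitals. The AP-1 motif was searched as TGAGTCA and also as its reverse complement. The octamer was searched as ATTTGCAT. The TATA box was searched as TATAAA.
Sprr2b, chr3:92316455-92316704, plus strand: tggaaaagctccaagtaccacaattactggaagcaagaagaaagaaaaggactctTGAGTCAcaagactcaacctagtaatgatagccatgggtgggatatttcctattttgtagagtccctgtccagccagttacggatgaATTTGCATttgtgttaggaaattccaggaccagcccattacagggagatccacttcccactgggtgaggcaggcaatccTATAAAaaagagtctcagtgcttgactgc
Sprr2i, chr3:92407741-92407990, plus strand: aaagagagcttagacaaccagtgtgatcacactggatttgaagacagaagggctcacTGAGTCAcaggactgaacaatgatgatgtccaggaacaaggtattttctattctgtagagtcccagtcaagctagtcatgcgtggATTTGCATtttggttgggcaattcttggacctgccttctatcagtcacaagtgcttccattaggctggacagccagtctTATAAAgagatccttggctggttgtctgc
Sprr1a, chr3:92485882-92486131, minus strand: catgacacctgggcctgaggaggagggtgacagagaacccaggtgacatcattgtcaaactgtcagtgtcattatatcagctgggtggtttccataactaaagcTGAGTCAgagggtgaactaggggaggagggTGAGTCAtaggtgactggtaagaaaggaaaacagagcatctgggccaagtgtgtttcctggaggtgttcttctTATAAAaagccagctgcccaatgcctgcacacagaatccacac
Ivl, chr3:92573736-92573985, minus strand: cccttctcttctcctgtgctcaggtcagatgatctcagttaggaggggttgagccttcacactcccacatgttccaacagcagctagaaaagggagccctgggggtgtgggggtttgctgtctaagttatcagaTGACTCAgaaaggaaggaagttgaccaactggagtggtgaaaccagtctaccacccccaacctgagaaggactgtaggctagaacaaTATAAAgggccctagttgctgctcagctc

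AP-1 is the dimer of Fos and Jun proteins, and the octamer is bound by POU factors such as Pou2f3. In Sprr2b the AP-1 match lay 195 to 189 bases before the start, the octamer 108 to 101 and the TATA box 29 to 24. All 7 windows of Sprr2b, Sprr2d, Sprr2e, Sprr2f, Sprr2h, Sprr2i and Sprr2k held the 3 motifs in this order, within a few bases of the same places. Over all 32851 windows of the table, 4.46% held an AP-1 match, 1.6% an octamer and 12.4% a TATA box. The octamer was added after the windows had been read. These 7 windows are related in sequence: Sprr2d, Sprr2e, Sprr2f, Sprr2h, Sprr2i and Sprr2k were 63.9% to 65.8% identical to Sprr2b in a global alignment. For Sprr1a, Sprr1b, Ivl and Scel the figure was 50.8% to 52.4%, and for Sprr2a1, Sprr2a2 and Sprr2a3 it was 49.3% to 50.2%. Scel, on another chromosome, gave the 52.4%, so figures at this level are not read as relatedness.

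The layout was shared by probe sets that differed in their order. Sprr2b and Sprr2i were highest on IL-13 6, and Sprr2e and Sprr2k on IL-13 18. These tested probe sets all had IL-13 values above both saline values. Of the others with the layout, Sprr2h was also higher on every IL-13 array, and Sprr2d and Sprr2f showed no separation. Those others were dim (Sprr2d read 48.3 to 165) and did not enter the fit, so an unlike response cannot be read from them. A link between layout and values was not tested. Sprr1a had a pair of AP-1 matches, 146 to 140 and 116 to 110 bases before the start, and no octamer. Ivl had AP-1 at 116 to 110 and a TATA box at 29 to 24. Scel had AP-1 at 36 to 30 and no TATA box, and Sprr1b had a TATA box alone. The palindrome preferred by STAT6, which carries the IL-13 signal, was searched on both strands, as all motifs were. It was in 0 of 5 member windows and 0 of those 7 Sprr2 windows, against 5.85% of all, and it occurred in the windows of Sprr2a1, Sprr2a2 and Sprr2a3 as TTCTAAGGAA. The general STAT motif TTCNNNGAA was likewise in 0 of 5 (7.02% of all). These letters were not in this window, and a match is a description of sequence.

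**Figure D3:**
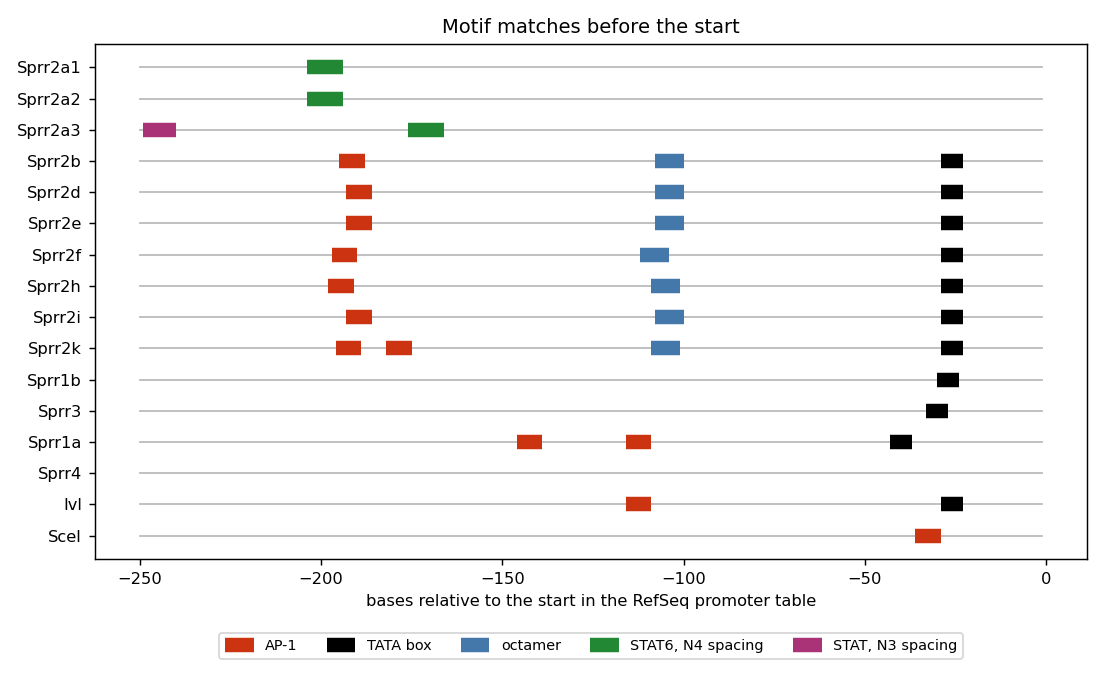
Motif matches in the windows before the start of each gene, with distance from the start in bases on the x axis and 1 row per gene. The 7 rows from Sprr2b to Sprr2k carry AP-1, octamer and TATA box in the same order, and Sprr2a1 to Sprr2a3 carry a STAT6-type match instead.

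Other genes of the epidermal differentiation complex were read from a list of neighbours (26 on the array, 18 tested, the SPRR genes above included). None was called by limma in either direction, 6 had an unadjusted p under 0.05 (all higher: Sprr2i, Sprr2e, Sprr2j-ps, Sprr2g, Lor and Sprr3), against 5.29% of all probe sets in that direction. A higher mean was found for 14 and a lower one for 4, against 4322 and 3488 of 7811. The groups did not overlap, with IL-13 higher, for 9 of the 18, against 14.8%. Most of these 9 are SPRR genes already counted above (Sprr2i, Sprr2e, Sprr2j-ps, Sprr2g, Sprr2k and Sprr3). Only Lor, S100a14 and S100a3 lie outside that family, so the count says little about the rest of the complex. The median log2 difference, with the SPRR genes included, was 0.43, beside 0.04 over all tested probe sets. Sprr2i (0.97), Sprr2e (0.94) and Sprr2j-ps (0.94) led. Lor, which encodes loricrin, the main envelope protein of skin, gave 1083 and 1207 under saline versus 1832, 2124 and 2113 under IL-13 on an r_at probe set, while its other probe set was dim (51.8 to 89.0). The lowest differences were in calcium-binding S100 genes: S100a8 (-0.21), S100a13 (-0.15) and S100a5 (-0.06). The other S100a13 probe sets gave 0.03, -0.46 and, on a dim one that was not tested, -0.28.

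Genes of the envelope scaffold and its cross-linking were all tested (13), and limma called none, nor did any have an unadjusted p under 0.05 (0 of 13). All 13 had a higher mean with IL-13, against 4322 of 7811 over all, with a median of 0.32 beside 0.04. The groups did not overlap for 4 of them, against 14.8%. Saline 6 was the lower saline array for 12 of the 13, against 4339 of 7811 over all. The median at 6 was 0.57 against saline 6 and 0.05 against saline 48. Tgm3, a transglutaminase of hair and stratified epithelium, gave 503 and 793 under saline versus 547, 1362 and 1976 under IL-13 (0.85), brightest on IL-13 48. Anxa1, annexin A1, a further envelope component, gave 5848 and 8699 under saline versus 14807, 9949 and 8914 under IL-13 (0.62, 93038_f_at), so it shared the order of Sprr1a. Its other probe sets gave 0.80 and 0.08. Tgm2, tissue transglutaminase, differed by 0.50. Dsp, desmoplakin, was 2.15-fold higher with IL-13 at 6 and 0.85 times saline at 48, and Ppl, periplakin, 1.61-fold and 1.07-fold.

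Regulators of SPRR genes and of the IL-13 signal showed no common direction. Of 18 tested, limma called none, and 2 had an unadjusted p under 0.05 (Cebpd and Socs1). Both were lower, against 310 of 7811 probe sets in that direction. A higher mean was found for 10 and a lower one for 8, against 4322 and 3488 of 7811. The groups did not overlap for 4 with IL-13 higher and 3 with IL-13 lower, against 1157 and 856 of 7811. The median was 0.03, beside 0.04 over all. Klf4, a zinc finger factor of epithelial barrier genes, differed by 0.46. Elf3, an epithelial ETS factor known to act on SPRR promoters, gave 965 and 1568 under saline versus 1780, 1578 and 1670 under IL-13 (0.44). Fos, an AP-1 subunit, gave 1287 and 889 under saline versus 724, 1242 and 3371 under IL-13, highest on IL-13 48. Pou2f3 gave 335 and 331 under saline versus 432, 366 and 388 under IL-13. Lower means were found for Socs1 (-0.68), a feedback inhibitor of cytokine signalling, Cebpd (-0.56) and the receptor gene Il4ra (-0.40, with a dim second probe set at 0.10). Stat6 gave 1385 and 2151 under saline versus 1408, 1714 and 1801 under IL-13, with overlapping groups.

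Squamous and basal epithelium holds the cells that use these proteins, and its markers were read beside the members. None of the 16 tested was called by limma, and 4 had an unadjusted p under 0.05 (Sfn, Gjb2, Ly6d and Krt13, all higher, against 5.29% of all probe sets). A higher mean with IL-13 was found for 15, against 4322 of 7811 over all, and no overlap of groups for 6, against 14.8%. The median of 0.58 stands beside 0.04 over all, and at 6 it depended on the saline array: it was 1.11 against saline 6 and 0.40 against saline 48. Krt6a, a keratin of activated squamous epithelium, gave 2284 and 3413 under saline versus 13137, 4167 and 4889 under IL-13 (1.21), with a second probe set at 1.33. Sfn, stratifin, differed by 1.09 and Gjb2, a gap junction gene, by 0.95, while Krt1 differed by -0.11. Krt4 and Krt13, keratins of internal squamous linings, were bright on all arrays, and at 6 their ratios were 1.27-fold and 1.91-fold. Over the 16 markers the ratio at 6 ran from 0.78-fold (Krt2) to 5.75-fold (Krt6a). It was at least 2-fold for 9 of them, against 317 of 7811 over all. Summed over the 22 genes of this list on the array, intensity was 44750 and 58676 under saline versus 83808, 63958 and 74136 under IL-13. Krt15 lay below the floor on all 5 arrays, and Krt5 and Krt14 were dim (at most 103 and 108). The part of this marker difference in the members' values was not tested. In such bulk RNA, a change in the number of cells of a type and a change in RNA per cell cannot be told apart.

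Saline 6, the control in every ratio at 6, stood apart from the other arrays. Its 9 salivary gland genes summed to 112843, against 889 to 1139 on the other arrays. Between IL-13 and saline the amylase gene Amy1 differed by -2.98 and the kallikrein gene Klk1b5 by -2.32. Klk1, another kallikrein gene, gave 11588 on saline 6 and 209 to 280 elsewhere. Of the 16 squamous markers, 13 were lower on saline 6 than on saline 48, against 4339 of 7811 over all. With saline 48 as control of IL-13 6, the number of squamous genes at least 2-fold higher went from 9 to 2. Over all 7811 tested probe sets that number went from 317 to 190. Sprr2b (3.13), Sprr2c-ps (5.55) and Sprr1a (1.49) remained at least 2-fold higher against saline 48, and Scel (0.74) did not. The part of the salivary gland signal in the saline 6 values was not tested.

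**Figure D4:**
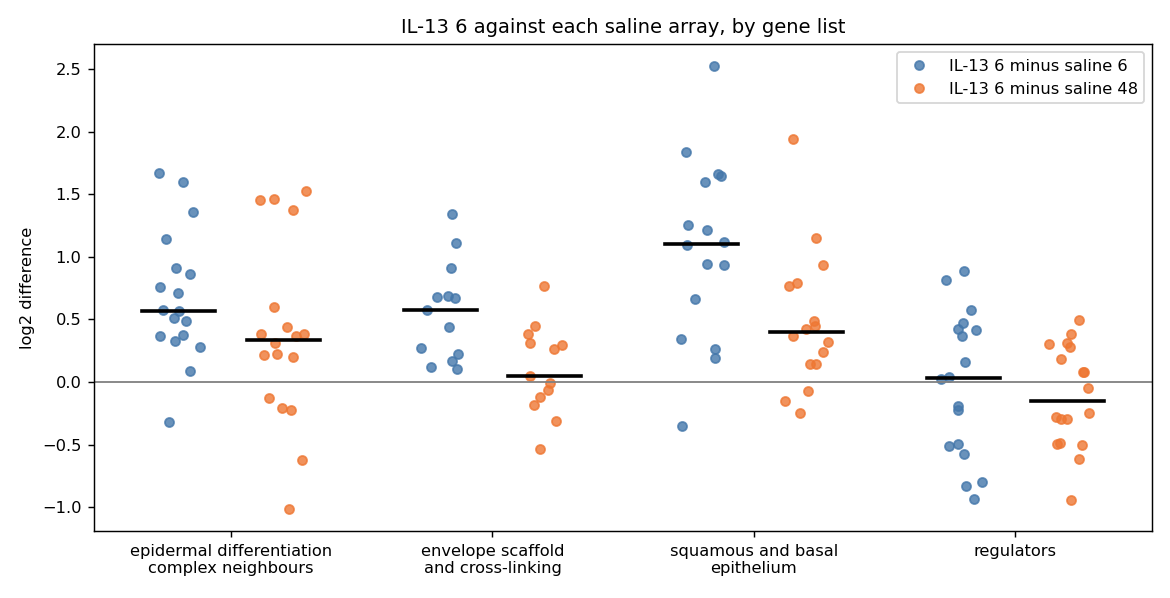
Log2 difference of IL-13 6 from saline 6 (blue) and from saline 48 (orange) for each tested gene of 4 lists, with black bars at the medians. The squamous and basal median is 1.11 against saline 6 and 0.40 against saline 48, and the envelope scaffold median 0.57 and 0.05.

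The arrays also differed in lung and thymus markers. The club cell gene Scgb1a1 was bright on all (22024 to 31024). The surfactant genes were not: Sftpc gave 2615 and 194 under saline versus 257, 17178 and 300.5 under IL-13, and Sftpb 232 and 92.4 versus 86.3, 2114 and 67.6. Ager, an alveolar type I cell marker, was bright on every array (1872 to 4928). Napsa, of alveolar type II cells, differed by -0.13. Of 7 tested thymus genes 6 had a lower mean with IL-13, against 3488 of 7811 over all, led by Cd3e (-2.47), Cd8b1 (-2.29) and Cd3g (-2.02). The exception was Rag1 (0.28), whose other probe set gave -2.08. The thymus list summed to 8420 and 10686 under saline versus 2856, 6328 and 2212 under IL-13. Their part in the members' values was not tested. Median intensity was 324 to 358 on the arrays, and r between arrays over tested probe sets was 0.913 to 0.956.

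Genes whose pattern over the 5 arrays was most like each member's were found by Pearson's r of log2 values among 1357 probe sets with a range of at least 1. With 5 points that share their arrays, these are descriptions only. For Sprr2b they were Sprr2j-ps (r = 0.9994), Kars, a lysyl-tRNA synthetase gene (0.997), and Gm10229 (0.993). For Sprr1a they were Qsox1, a sulfhydryl oxidase (0.995), Anxa1 (0.994) and the protease inhibitor gene Serpinb2 (0.981). Serpinb2 gave 172 and 335 under saline versus 1031, 361 and 285 under IL-13. For Scel they were B3gnt2 (0.998), Anxa1 on its i_at probe set (0.996) and Cdca7l (0.996). The Sprr1b probe sets had different companions: Fgfr1op2, Rgs11 and Iigp1 (0.912 to 0.918) for f_at, and Ltb4r1, Ptger4 and Ikzf1 (0.978 to 0.986) for r_at. Among the members themselves r was 0.88 between Sprr2b and Sprr1a, 0.81 between Sprr1a and Scel and 0.16 between Sprr2b and the f_at probe set of Sprr1b.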

How the data were processed

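The deposited table holds 12488 probe sets on 5 arrays. Its values are intensity on a linear scale, which the authors had scaled, since the 2% trimmed mean of each array lies between 800.39 and 800.47. The software behind them is not given in the sources used here. Control probe sets (66) were left out. The annotation gave 10833 probe sets 1 symbol, 396 several and 1193 none, and 10817 symbols were brought up to date by gene number from RefSeq's table (assembly GRCm38.p6). Each array was rescaled to the same trimmed mean, a floor was set at the 20th percentile of all values (55.3), and logarithms to base 2 followed. The 7811 probe sets that exceeded the 40th percentile (210) on 2 or more arrays were tested with limma 3.58.1 (lmFit, eBayes) in R 4.3.3, treatment as the only term, two-sided, 3 residual and 3.46 prior degrees of freedom, Benjamini-Hochberg adjustment. The fit was tested on simulated data.

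Ratios at 6 and 48 compare 1 array with 1 and have no test, and the number of arrays limits the precision. P-values reflect nothing but the spread among these arrays, since nothing says that they come from separate animals. Members and lists were chosen with earlier results of these data known. Lists cover neighbours in the epidermal differentiation complex, envelope scaffold genes, regulators, and markers of squamous epithelium, lung, salivary gland and thymus. From each, the text names by rule the 3 largest differences each way, and others where a sentence needs them, chosen after their values were seen. For a gene with several probe sets, the one with the highest mean stands in a list. Of the salivary gland, lung and thymus lists limma called none. An unadjusted p under 0.05 was found for 0 of 3, 0 of 7 and 4 of 7 tested genes. The 4 thymus genes (Cd8a, Cd3g, Cd8b1 and Cd3e) were all lower with IL-13, against 310 of 7811 probe sets in that direction. The medians of the lists were -2.98, 0.06 and -1.73, beside 0.04 over all. Windows were aligned with Biopython 1.88 and figures drawn with matplotlib 3.10.9.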

Additional observations from a re-analysis of the deposited data

Results flagged for a closer look

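Sprr2f (94120_s_at) read higher with IL-13 at 6 (243 against 129) and lower at 48 (91.5 against 154), so the pairs moved in opposite directions, by 1.66 on the log2 scale between them. Each side is 1 array against 1, the difference was not tested, and the probe set exceeded 210 on 1 array alone.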

How the results depend on the processing

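Leaving out arrays moved the members' log2 differences. Sprr2b ranged from 1.59 to 2.69, Sprr1a from 0.66 to 1.45 and Sprr1b (f_at) from 0.43 to 1.16 when 1 array was left out, and the changes in a mean of 2 or 3 arrays are bounded by their own spread, so they are no sign of stability. The number of member probe sets with a log2 difference of at least 1 (3) ranged from 1 to 4 in those fits, and it was 1 without saline 6. At 48, 2 members were at least 2-fold higher with saline 6 as control (Scel and Sprr1b, f_at). With saline 48 as control, 3 were at least 1.5-fold higher. For IL-13 18, 1 was at least 3-fold higher. The shares over all probe sets were not counted for these settings or for a log2 difference of at least 1, so nothing is read from these counts. Blocking on the title number, with IL-13 18 left out (replicate block), gave 4 members with a log2 difference of at least 1. Sprr2b then differed by 1.98. Both values are the same as on leaving out IL-13 18. Arrays share a number only, and r between the differences of saline and of IL-13 arrays across the numbers was 0.132. Calls over all probe sets (4) became 0 with floors at the 10th or 40th percentile, no filter, trend and robust settings or the block, 1 with a filter at the 60th percentile, and 0 to 13 leaving out 1 array (13 without saline 48). None of these fits called a member, and the cause of the changes was not tested. Values as deposited and quantile normalization gave 4 and 3 calls. Dim probe sets (Ivl, Sprr2d, Sprr2f, Sprr2h) limit what can be read from them.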
